A study of Mus musculus with 66 samples.

Results

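The genes described here are the Hox cluster genes, the homeobox genes of the HoxA, HoxB, HoxC and HoxD clusters. They were taken as every gene symbol made of Hox, a cluster letter from a to d and a paralog number. This gave 39 of the 30452 genes with values, 11 in HoxA, 10 in HoxB, 9 in HoxC and 9 in HoxD, from 87 transcripts. No measured value entered that choice, and 31 of the 39 reached at least 1 TPM (the relative abundance of a transcript, adjusted for its length) in some sample. The remaining 8, among them Hoxb4, Hoxb5, Hoxb8 and Hoxc12, stayed under 1 TPM in all 66 samples. A further 11 long non-coding RNAs of the clusters, among them Hotair, Hottip and Hoxa11os, have 31 rows without values and were not analysed here.

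The data are bulk RNA sequencing of dissected sections of the lower gut of 19 wildtype C57Bl/6 mice, which had been bought at the age of 6 weeks. Colitis was induced with 3% dextran sulfate sodium (DSS), which damages the lining of the colon, for 6 days starting on day 0, so the day 3 mice were taken during the exposure. There were 4 uninjured mice at day 0 and 3 mice at each of days 3, 6, 9, 14 and 20, and the muscle layer was discarded from each section. Every mouse gave 1 sample each of mid-colon, rectum and anus (19 per section), and the 9 mice of days 9, 14 and 20 also gave a sample of squamous neo-epithelium. Throughout, ± is the SD over mice, with n = 4 at day 0 and n = 3 at later days, and values listed for day 0 are in the order of mice 1 to 4. The labels name no cage, run or library batch, so p-values measure the spread between these mice only.

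Hox genes encode transcription factors that give cells along the body axis their regional identity. Within a cluster the genes lie in the order in which they are used from head to tail, with low paralog numbers anterior and the highest numbers posterior, and genes with the same number in different clusters are paralogs. The paralog group 13 genes are the most posterior and act in the hindgut, the cloaca, the genitalia and the tail end of the body. Many adult tissues keep a Hox pattern that reflects where they arose, and this holds for fibroblasts and skin as well as for gut.

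All 39 symbols were found in GENCODE M21 on GRCm38, the assembly also called mm10. HoxA spans chr6:52155590-52260880, HoxB chr11:96194316-96368256, HoxC chr15:102921103-103036852 and HoxD chr2:74668310-74765142. The 3 upstream windows of 250 bases are shown because their genes carry the main patterns: Hoxa13 and Hoxd13 fell with injury in the anus, and Hoxc4 belongs to the cluster that was detected in the anal section. The sequences are from RefSeq (GRCm38.p6), on the strand of the gene and read 5′ to 3′, with CpG pairs in capitals. The Hoxa13 window is chr6:52260881-52261130 on the minus strand, the Hoxd13 window chr2:74667975-74668224 on the plus strand and the Hoxc4 window chr15:103034145-103034394 on the plus strand.
Hoxa13: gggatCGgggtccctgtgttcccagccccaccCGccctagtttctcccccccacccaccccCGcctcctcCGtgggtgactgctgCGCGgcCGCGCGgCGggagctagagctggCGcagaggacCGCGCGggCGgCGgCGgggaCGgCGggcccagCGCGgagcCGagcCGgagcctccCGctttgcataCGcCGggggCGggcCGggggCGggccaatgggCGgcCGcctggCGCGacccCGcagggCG
Hoxd13: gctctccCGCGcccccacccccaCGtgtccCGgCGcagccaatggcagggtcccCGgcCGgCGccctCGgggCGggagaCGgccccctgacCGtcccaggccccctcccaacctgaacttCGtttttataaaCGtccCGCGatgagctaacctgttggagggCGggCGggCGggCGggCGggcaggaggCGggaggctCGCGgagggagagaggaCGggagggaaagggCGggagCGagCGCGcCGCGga
Hoxc4: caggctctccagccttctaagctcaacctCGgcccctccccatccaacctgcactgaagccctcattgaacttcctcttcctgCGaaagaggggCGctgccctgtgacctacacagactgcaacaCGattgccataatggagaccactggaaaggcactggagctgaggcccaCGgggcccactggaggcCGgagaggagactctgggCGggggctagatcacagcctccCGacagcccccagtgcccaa
The Hoxa13 window holds 35 CpG pairs, a number reached by 2.97% of the 32851 promoter windows in the table, and the Hoxd13 window holds 31 (5.19%). The Hoxc4 window holds 8, which 43.0% of all windows reach. Over the 24 windows found, for 22 of the 39 genes, the number ran from 2 to 35 with a median of 12.5, against a median of 6 over all windows. The motif TTTATG, searched on both strands, occurred in 5 of the 24 windows (20.8%), those of Hoxa7, Hoxb8, Hoxd3, Hoxd4 and the distal start of Hoxd11, and in 10.8% of all windows. These matches describe the letters of the windows only.

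The sections were checked against marker lists. Summed TPM over 10 columnar epithelial genes (Epcam, Krt20, Car1, Muc2 and others) lay between 11993 and 22554 in mid-colon and between 10527 and 24520.0 in rectum. Summed TPM over 10 squamous genes (Krt5, Krt14, Krt13, Trp63 and others) lay between 10495 and 27682 in anus and between 15084 and 33764 in neo-epithelium. The anal sections also held skin markers (8 genes of epidermis and hair follicle, Krt10, Lor, Flg, Krt25 and others, 2363 to 7052 TPM) and skeletal muscle markers (Acta1, Ckm and others, 8 genes, 2068 to 22049 TPM). In neo-epithelium those lists summed to 6.43 to 277 TPM and 7.98 to 16.0 TPM. Mesenchymal markers (Col1a1, Pdgfra and others, 10 genes) summed to 1899 to 4192 TPM in anus and 853 to 1071 TPM in uninjured rectum. The neo-epithelial sections listed Krt25, of the skin list, and Myh4, of the muscle list, at 0 in all 9 samples. In bulk samples fewer cells of a type and less RNA per cell cannot be told apart. Counts are not given, so sequencing depth is unknown, and between 11268 and 13789 genes had at least 1 TPM per sample.

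In the uninjured colon a few posterior genes made up most of the Hox signal. The 39 genes summed to 364 ± 57.1 TPM in mid-colon, 428 ± 33.3 TPM in rectum and 183 ± 57.0 TPM in anus. Hoxb13, Hoxa13 and Hoxd13, the paralog 13 genes outside HoxC, carried nearly all of the paralog 13 share, which was 68.4 ± 2.28% of the Hox total in mid-colon, 67.9 ± 1.32% in rectum and 40.0 ± 9.54% in anus. Hoxb13 by itself made up 48.4 ± 2.72%, 44.7 ± 1.90% and 24.2 ± 6.81%. In rectum the order of the mean levels (TPM, per length) at day 0 was Hoxb13 (192), Hoxd13 (65.4), Hoxa13 (33.6), Hoxa9 (31.2), Hoxa10 (28.7), Hoxd10 (16.8), Hoxd11 (16.2) and Hoxb9 (11.7). Hoxb13 and Hoxd13 did not overlap with their neighbours in that order, nor did Hoxb9, whereas Hoxa9 overlapped with both Hoxa13 and Hoxa10, and Hoxd10 with Hoxd11. In the anus Hoxb13 (46.1 ± 26.0 TPM), Hoxd13 (20.1 ± 10.9 TPM), Hoxa9 (19.6 ± 5.79 TPM) and Hoxa10 (18.9 ± 3.32 TPM) each overlapped with the next in order. The low paralog numbers 1 to 4 stayed under 2 TPM on average in every section at day 0, apart from Hoxa3 in rectum (2.55 ± 0.550 TPM).

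**Figure D1:**
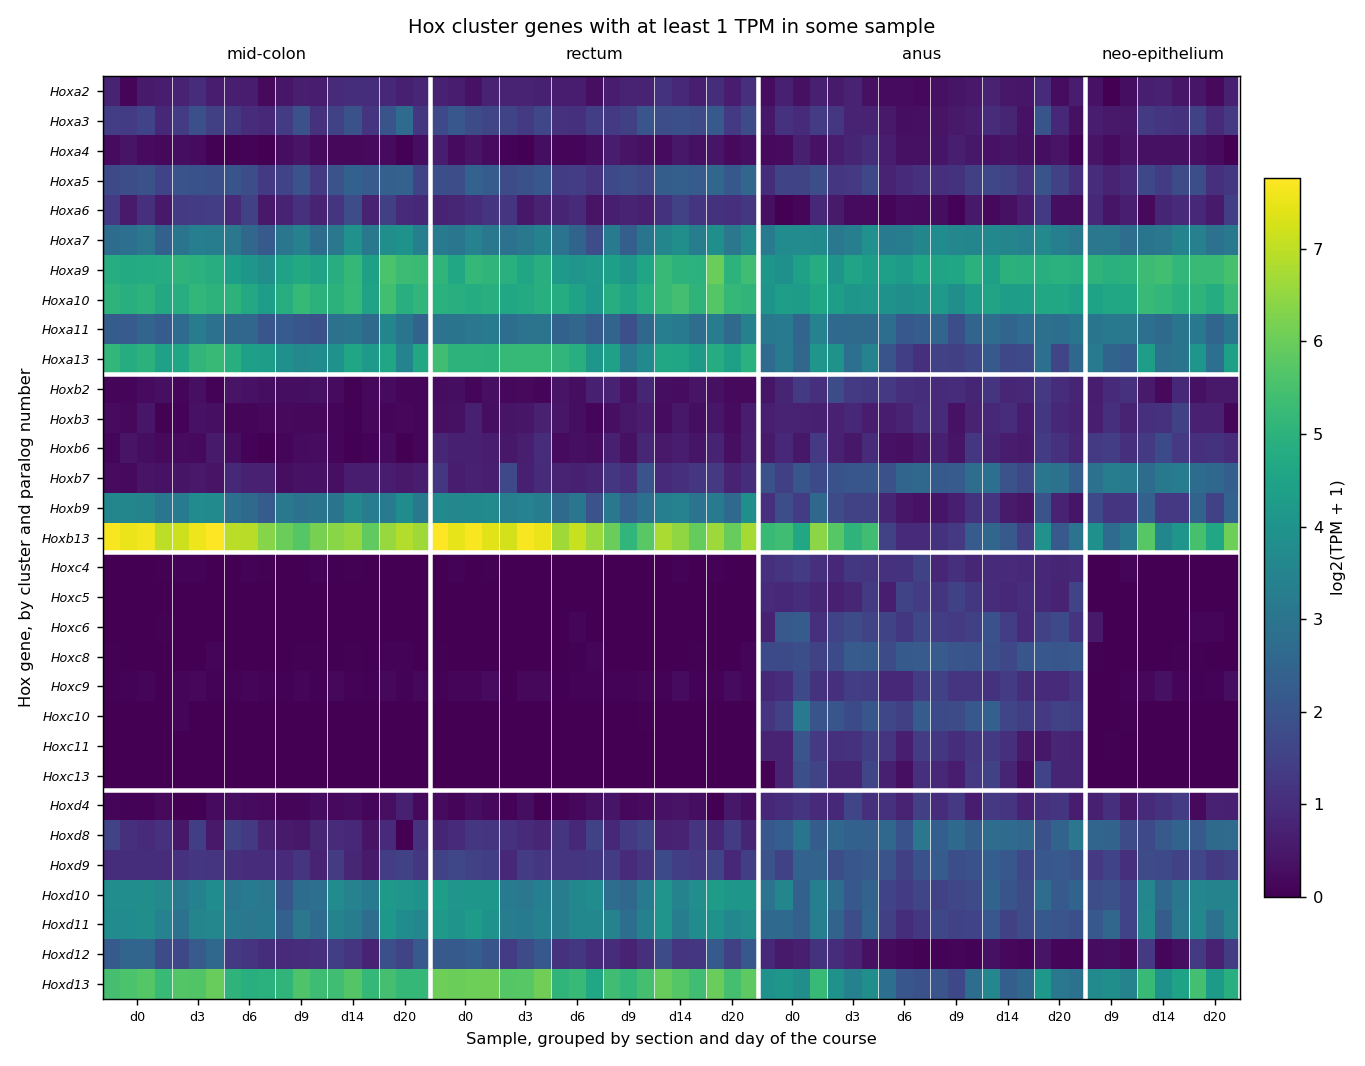
Abundance in all 66 samples of the 31 Hox genes that reached 1 TPM in some sample, as a heat map, with genes in rows by cluster and paralog number, samples in columns by section and day, and colour for log2(TPM + 1). Hoxb13 is the brightest row in mid-colon and rectum, and the HoxC rows are dark outside the 19 anal samples.

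The first comparison asked how Hox genes differ between the uninjured anus and rectum. Members of paralog groups 9 to 13 made up 9 of the 11 called lower in anus, the others being Hoxa3 and Hoxa5, while Hoxa11 was not called and Hoxd9 was higher. Hoxb7 and Hoxd8 were also higher, and so were the 3 HoxC genes tested. Hoxb7, Hoxd8 and the HoxC genes passed the filter because of their anal values, the HoxC genes through them alone. Hoxd9 passed it in either section. Of the 39 genes, 19 passed the filter on low values, of which 6 were higher and 11 lower in anus by limma with Benjamini-Hochberg adjustment. Most of these 19 also belonged to paralog groups 9 to 13, so the 9 of 11 above is not a result in itself. In this comparison 60.3% of all 13158 genes tested were called (25.9% higher and 34.4% lower), so the number of called members is not a result in itself. The median log2 difference, anus minus rectum, was −0.60 over the 19 tested members and −0.15 over all genes tested.

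Among the paralog 13 genes, Hoxb13 (ENSMUSG00000049604), which is known for roles in the prostate, the tail bud and the hair follicle, had 216, 178, 203 and 169 TPM in the 4 rectal samples and 36.5, 40.6, 23.8 and 83.7 TPM in the 4 anal samples. Every anal value lay below every rectal one, and the anal value of mouse 4 was the highest of its group. The difference on the log2(TPM + 1) scale was −2.17 (SE 0.31, adjusted p = 2.3e-04). Hoxa13 (ENSMUSG00000038203), which acts in the hindgut, the limb and the genital tubercle, had 40.9, 31.6, 31.1 and 30.8 TPM in rectum and 5.62, 8.47, 4.95 and 15.5 TPM in anus, with a log2 difference of −1.96 (SE 0.29, adjusted p = 3.0e-04). The groups again did not overlap, and mouse 1 was the highest rectal value. Hoxd13 (ENSMUSG00000001819), which with its neighbours shapes digits, genitals and the anal sphincter, had 65.9, 63.4, 65.8 and 66.3 TPM in rectum and 14.5, 16.2, 13.2 and 36.4 TPM in anus, a log2 difference of −1.77 (SE 0.27, adjusted p = 3.4e-04). The anal sample of mouse 4 was the highest for all 3 genes, and its summed columnar marker level, 6426 TPM, was also the highest of the 4 anal samples (2302, 3430.3 and 2069 TPM in mice 1 to 3). The part of that epithelium in these differences was not tested.

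The next genes of the HoxD cluster ran the same way. Hoxd12 had 3.53, 3.60, 3.96 and 3.06 TPM in rectum and 0.810, 0.482, 0.557 and 1.22 TPM in anus (log2 difference −1.38, SE 0.17, adjusted p = 1.0e-04). Hoxd11 had 17.5, 15.0, 18.1 and 14.4 TPM in rectum and 5.29, 5.28, 4.24 and 8.95 TPM in anus (log2 difference −1.35, SE 0.21, adjusted p = 3.5e-04). Hoxd10 had 19.5, 15.5, 16.2 and 16.1 TPM in rectum and 6.82, 10.9, 4.35 and 9.23 TPM in anus (log2 difference −1.07, SE 0.24, adjusted p = 0.00311). For all 3 genes every anal value was below every rectal value. Hoxd12 passed the filter through its rectal values, since most of its anal values were under 1 TPM. Hoxa11, a gene of the uterus and of the forearm and lower leg, had 6.70, 6.90, 7.45 and 8.03 TPM in rectum and 7.74, 8.34, 4.83 and 9.78 TPM in anus, overlapping groups with a log2 difference of 0.04 (SE 0.20, adjusted p = 0.89). Hoxa10, also a uterine patterning gene, had 30.2, 28.4, 27.1 and 29.0 TPM in rectum and 15.1, 19.1, 18.4 and 23.1 TPM in anus (log2 difference −0.59, SE 0.15, adjusted p = 0.00602). These groups did not overlap. Within paralog groups 10 and 11 the difference was thus further from 0 for the HoxD member than for the HoxA member, and this contrast between genes was not tested.

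Hoxb9, the next gene of its cluster on the anterior side of Hoxb13, had 12.2, 11.2, 11.4 and 12.0 TPM in rectum and 1.13, 2.58, 1.55 and 5.21 TPM in anus, a log2 difference of −1.94 (SE 0.30, adjusted p = 3.5e-04). The groups did not overlap. Hoxa9, a gene used in blood stem cells and in posterior patterning, had 33.0, 24.1, 35.1 and 32.5 TPM in rectum and 16.3, 13.9, 20.9 and 27.1 TPM in anus (log2 difference −0.67, SE 0.21, adjusted p = 0.0188). Its groups overlapped, since the anal value of mouse 4 exceeded the rectal value of mouse 2. That call depends on the transcripts counted: over protein-coding transcripts alone the difference was 0.43 (adjusted p = 0.0546), and it was also lost without mouse 1 or mouse 3. Hoxa5, a gene of lung and trunk patterning, was lower as well, at 2.67, 2.58, 4.43 and 3.74 TPM in rectum and 1.03, 1.98, 2.02 and 2.54 TPM in anus (log2 difference −0.60, SE 0.22, adjusted p = 0.0367), and lost its call whichever mouse was left out. Hoxa3, which patterns pharyngeal organs, differed by −0.84 (SE 0.21, adjusted p = 0.00593). Hoxa7 was 8.41, 7.25, 9.79 and 7.54 TPM in rectum and 7.93, 12.4, 12.4 and 11.8 TPM in anus and was not called (log2 difference 0.38, SE 0.18, adjusted p = 0.0906).

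Genes higher in the anus lay outside the posterior end of HoxA, HoxB and HoxD. Hoxb7, which is active in the ureteric bud of the kidney, had 1.36, 0.520, 0.628 and 0.584 TPM in rectum and 2.79, 1.76, 3.21 and 2.34 TPM in anus, a log2 difference of 1.00 (SE 0.20, adjusted p = 0.0017). Hoxd8 had 0.759, 0.955, 1.34 and 1.22 TPM in rectum and 3.30, 3.98, 7.03 and 3.87 TPM in anus (log2 difference 1.39, SE 0.21, adjusted p = 3.7e-04). Every anal value of both genes was above every rectal value. Neither gene had 1 TPM or more in all 4 rectal samples. Both thus passed the filter through the group where they were higher, which limits what their calls show. Hoxd9 had 1.92, 2.17, 1.81 and 1.69 TPM in rectum and 2.94, 1.87, 4.43 and 4.49 TPM in anus (log2 difference 0.57, SE 0.22, adjusted p = 0.046), with the anal value of mouse 2 inside the rectal range. With the mouse as a replicate block its adjusted p was 0.0733, and it was also lost without mouse 1, mouse 3 or mouse 4. Within HoxD, then, Hoxd8 was higher in anus and Hoxd10, Hoxd11, Hoxd12 and Hoxd13 were lower, and within HoxB Hoxb7 was higher while Hoxb9 and Hoxb13 were lower. Hoxb6 (0.796, 0.592, 0.609 and 0.540 TPM in rectum, 0.470, 0.804, 0.406 and 1.45 TPM in anus) did not pass the filter. Hoxd4 did not pass it either, at 0.176, 0.0919, 0.232 and 0.132 TPM in rectum and 0.811, 1.00, 1.22 and 0.885 TPM in anus, with every anal value above every rectal one.

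**Figure D2:**
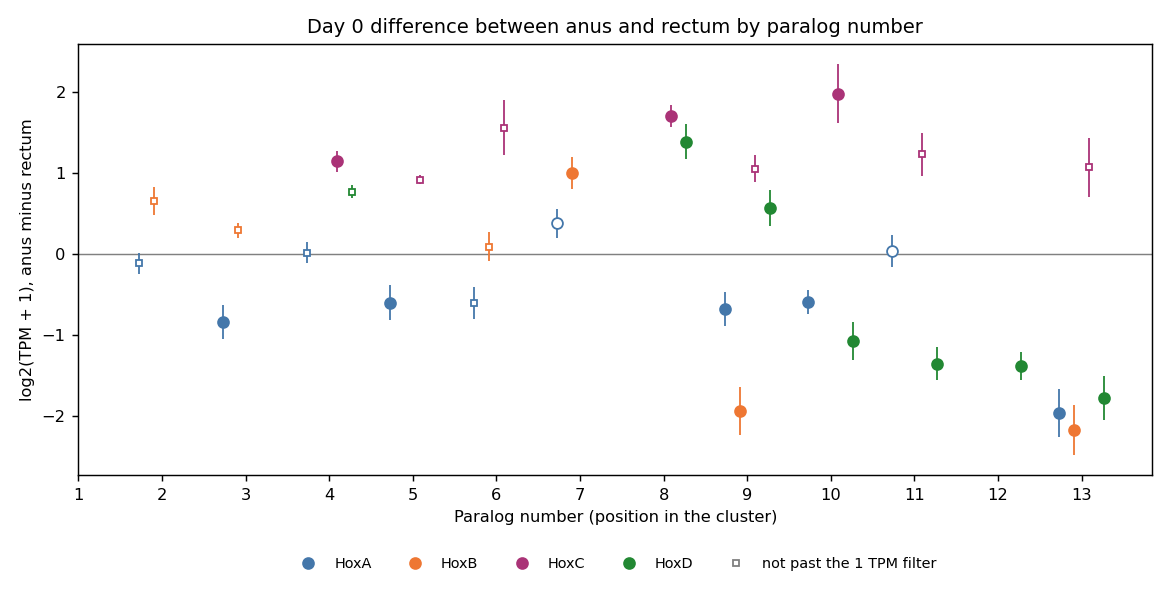
Day 0 difference between anus and rectum (log2(TPM + 1), anus minus rectum, with its SE from limma) against paralog number for the 31 genes that reached 1 TPM in some sample, coloured by cluster. Filled circles are called, open circles are tested and not called, and small squares are genes under the filter on low values. Hoxb13 (−2.17), Hoxa13 (−1.96) and Hoxd13 (−1.77) are below 0 at paralog 13, and the HoxC genes are at or above 0 at every number.

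The same contrast over days 3 to 20 (15 mice) tested 17 members, of which 6 were higher and 9 lower in anus, with 72.6% of all genes called (35.3% higher and 37.3% lower). Hoxb13 lay between 33.2 and 207 TPM (median 97.7) in rectum and between 0.934 and 52.8 TPM (median 3.49) in anus, a log2 difference of −3.92 (SE 0.27, adjusted p = 3.4e-13). The ranges overlapped through day 3, whose 3 samples held the highest anal values. The difference was −2.63 for Hoxd13 and −2.43 for Hoxa13, and 1.46 for Hoxd8 and 1.28 for Hoxb7. Hoxd8 again passed the filter because of its anal values, which limits what its call shows. Hoxa9 was not called over these days (log2 difference −0.16, SE 0.11, adjusted p = 0.21). Hoxa7 was called higher in anus at 0.36 (SE 0.14, adjusted p = 0.0207), but over protein-coding transcripts alone it was −0.50 (adjusted p = 0.00524), and without day 9 the call was lost (adjusted p = 0.139). The samples of the sections come from the same mice, and the block by mouse changed no call of this contrast.

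HoxC genes were detected chiefly in the anal section. Every one of the 19 anal values lay above all 47 values of the other 3 sections for 8 of the 9 HoxC genes, the exception being Hoxc12, and for 0 of the 30 members of the other clusters. How many of all genes separate in this way was not counted, so the 8 of 9 is not a result in itself. HoxC genes at or above 1 TPM numbered between 3 and 8 in each anal sample and 0 in each of the 47 other samples. The cluster summed to 14.6 ± 7.64 TPM in the uninjured anus and to between 7.85 and 25.6 TPM over all anal samples. It did not exceed 0.211 TPM in any mid-colon sample, 0.229 TPM in any rectal sample or 0.474 TPM in any neo-epithelial sample. Its share of the Hox total in anus was 10.6 ± 3.51% (SD, n = 19).

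Hoxc8 (ENSMUSG00000001657), a gene of mid-trunk and limb-level motor neurons, had 2.33, 2.37, 2.65 and 1.81 TPM in the uninjured anus against 0.0312, 0, 0 and 0 TPM in rectum, a log2 difference of 1.70 (SE 0.14, adjusted p = 5.5e-06). Hoxc10 (ENSMUSG00000022484), a gene of the lumbar level and hindlimb, had 1.24, 1.88, 8.31 and 3.04 TPM in anus and was listed at 0 in all 4 rectal samples (log2 difference 1.98, SE 0.37, adjusted p = 0.00117). The anal values of mouse 3 stood highest for Hoxc10, and the groups were far apart for both genes. Hoxc4 differed by 1.14 (SE 0.13, adjusted p = 6.3e-05). Hoxc6 had 0.641, 3.51, 3.82 and 1.13 TPM in anus and was listed at 0 in all 4 rectal samples. Hoxc9 had 0.873, 1.04, 2.31 and 1.21 TPM in anus and 0.0475, 0.108, 0.109 and 0.165 TPM in rectum. These values are low but did not overlap. Hoxc11 had 0.708, 0.716, 3.13 and 1.49 TPM in anus and was listed at 0 in every mid-colon and rectal sample of every day. Hoxc13, which drives hair and nail keratin genes, had 0.0342, 0.689, 2.71 and 2.01 TPM in anus and was listed at 0 in every mid-colon sample and in all but 1 rectal sample. The anal value of mouse 1 was close to 0 for Hoxc13 and the lowest of its group for Hoxc6, Hoxc9, Hoxc10 and Hoxc11. Mouse 3, with the highest Hoxc10, Hoxc11 and Hoxc13, also had the highest summed skeletal muscle markers, at 22049 TPM against 2068, 5127 and 10252 TPM in mice 1, 2 and 4. Its skin markers were 4651 TPM, within the range of the others, and the part of either tissue was not tested.

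Only 3 HoxC genes (Hoxc4, Hoxc8 and Hoxc10) passed the filter of 1 TPM in 4 samples at day 0, and since their rectal and mid-colon values were at or near 0, they could pass it through the anal samples alone, so their calls as higher in anus were set by the filter. With no filter on low values, limma called 8 of the 9 higher in anus than in rectum at day 0 and 7 of the 9 higher than in mid-colon, where 4139 of 21650 and 5006 of 21522 of all genes were called higher. Over days 3 to 20 the numbers were 8 and 8, where 6555 of 23502 and 8318 of 23552 of all genes were called higher. The HoxC genes tested with the filter over those days also passed it through their anal values alone. No fold is given for a gene listed at 0 in the other section. HoxC genes also overlap one another: in GENCODE M21 the longest Hoxc5 gene model runs across Hoxc6, Hoxc8, Hoxc9 and Hoxc10 on the same strand, so reads may be shared between them. Most of the anal Hoxc8 abundance (79.4%) was on Hoxc8-202, a transcript with a retained intron.

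**Figure D3:**
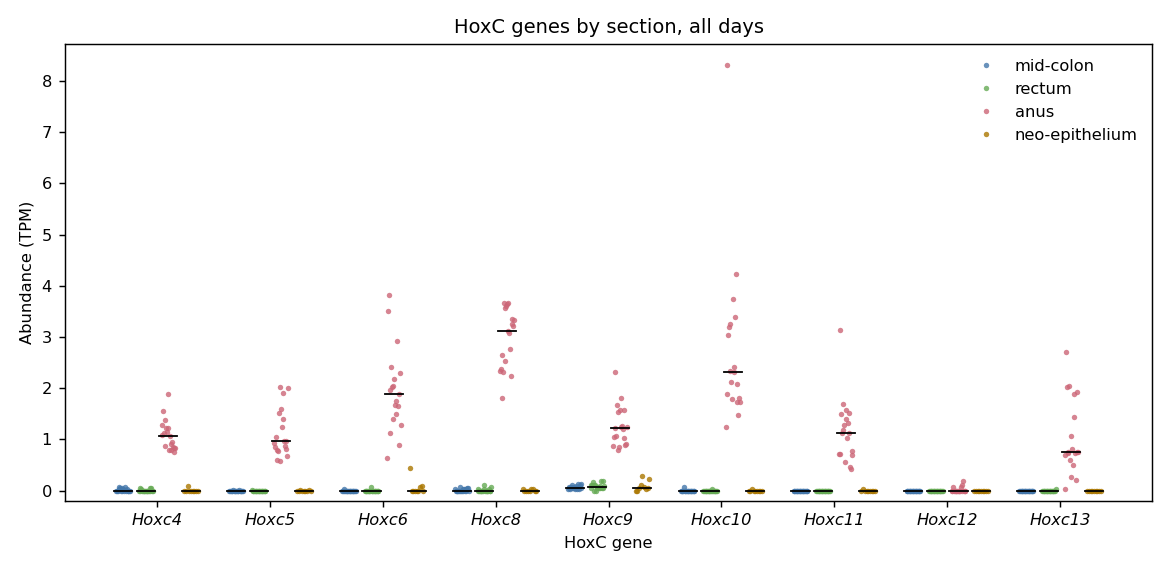
Abundance (TPM) of the 9 HoxC genes in every sample, with 1 point per sample coloured by section and a bar at the median of each section. The anal points of 8 genes lie above all points of the other sections, and Hoxc12 is near 0 everywhere.

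Mid-colon and rectum differed far less. At day 0, 15 members were tested and 3 were called, all higher in rectum, where 1.79% of all genes were called (1.52% higher). They were Hoxa11 (3.94, 3.71, 4.74 and 3.76 TPM in mid-colon and 6.70, 6.90, 7.45 and 8.03 TPM in rectum, log2 difference 0.72, SE 0.13, adjusted p = 0.0301), Hoxd13 (log2 difference 0.56, SE 0.11, adjusted p = 0.0437) and Hoxd9 (log2 difference 0.54, SE 0.11, adjusted p = 0.0476). The mid-colon and rectal values did not overlap for Hoxa11, Hoxd13 (43.1, 46.1, 51.8 and 37.0 TPM in mid-colon) or Hoxd9. All 3 calls were lost with trimmed-mean (TMM) scaling, which moved the median of all genes from 0.21 to 0.01, with no filter on low values and without any of the 4 mice; with the block by mouse Hoxd9 was lost (adjusted p = 0.0634). Over days 3 to 20 limma called 0 of 15 members, with 1 at an unadjusted p under 0.05, where 31.4% of all genes were called. With no filter on low values some members were called over those days, where 3882 of 23177 of all genes were higher and 266 lower. Hoxb13 lay between 51.3 and 214 TPM (median 94.5) in mid-colon over those days, a range that overlapped with the rectal one. Anus against mid-colon tested 19 members at day 0, with 8 higher and 8 lower (54.1% of all genes called, 30.9% higher and 23.1% lower), and 17 over days 3 to 20, with 5 higher and 9 lower (75.7%, 45.3% higher and 30.5% lower). The mid-colon contrast shares its anal samples with the rectal one. With the block by mouse, Hoxa10, Hoxa11 and Hoxd10 lost their day 0 calls between anus and mid-colon (adjusted p = 0.0600, 0.0515 and 0.0679).

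Genes that act with or around Hox proteins also differed between anus and rectum at day 0. Over all genes tested, 60.3% were called in that comparison, 25.9% higher and 34.4% lower. Of 9 TALE homeobox cofactors, which bind DNA together with Hox proteins, 7 were tested; 3 were higher in anus and 2 lower. Meis1 was 2.15 (SE 0.16, adjusted p = 3.0e-06) and Meis2 1.97 (SE 0.18, adjusted p = 1.4e-05), while Pbx2 (−0.72) and Pknox1 (−0.66) were lower, and the median was 0.33 against −0.15 over all genes. Meis1 averaged 9.99 ± 1.31 TPM in anus and 1.47 ± 0.261 TPM in rectum. Of the ParaHox genes and cluster neighbours, 8 of 9 had rows and 3 were tested, all lower in anus: Cdx1 (−2.51) and Cdx2 (−2.12), which specify intestinal epithelium and act upstream of Hox genes, and Evx2 (−0.65), the neighbour of Hoxd13. Cdx2 and Evx2 stayed under 1 TPM in every anal sample at day 0. Both passed the filter through rectum alone, so their calls as lower were set by the filter. Of 13 retinoic acid genes, 11 were tested, with 9 higher and 1 lower, and their median was 2.35. Retinoic acid is a known inducer of Hox genes; the retinoid carriers Crabp2 (7.00) and Crabp1 (4.27) and the synthesis enzyme Aldh1a3 (3.25) were among the higher genes, and the receptor Rara (−1.12) was the lower one. Of 17 Polycomb and trithorax genes, which hold Hox clusters silent or active, all were tested, with 2 higher, among them Cbx2 (0.81), and 7 lower, among them Kdm6a (−0.90) and Kmt2a (−0.59), and a median of −0.50. Set against the shares over all genes, the numbers called in the TALE and Polycomb lists are not results in themselves.

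The next comparisons asked how Hox levels moved with injury within a section. Every called change against day 0 was a fall, in all 3 sections, and in mid-colon and anus the called members all had paralog numbers from 9 to 13. Members with those numbers also made up most of those tested in mid-colon and many of those tested in anus. Each later day was set against the same 4 day 0 samples of its section, so the days of a section share their controls. At day 3 limma called 0 of 16 members in mid-colon (1 at an unadjusted p under 0.05; 0.375% of all genes called) and 0 of 24 in anus (0 at an unadjusted p under 0.05; 0.044%). In rectum 2 of 15 fell at day 3, Hoxd10 (log2 difference −0.95, SE 0.12, adjusted p = 0.0019) and Hoxd11 (log2 difference −0.81, SE 0.12, adjusted p = 0.00421), where 6.62% of all genes were called (5.13% lower). Hoxd10 in rectum was 8.07, 7.47 and 9.16 TPM at day 3, below all 4 day 0 values.

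In mid-colon 6 of 16 members fell at day 6 (14.9% of all genes called, 9.99% lower): Hoxa9 (−0.70), Hoxb9 (−0.82), Hoxd10 (−0.68), Hoxd11 (−0.58), Hoxd12 (−1.10) and Hoxd13 (−0.54). Without mouse 10 the count was 0, without mouse 4 it was 7, and without any other single mouse it was between 1 and 3. At day 9, 5 of 16 fell (43.4% called, 17% lower). Hoxb13 in mid-colon was 204, 184, 195 and 125 TPM at day 0 and 64.4, 51.3 and 70.8 TPM at day 9, groups that did not overlap (log2 difference −1.48, SE 0.20, adjusted p = 2.6e-04). The other 4 were Hoxa13 (−1.06), Hoxd10 (−1.24), Hoxd11 (−0.96) and Hoxd12 (−1.29). Hoxd13 was not among them, at 32.7, 48.8 and 40.1 TPM on day 9 (log2 difference −0.14, SE 0.19, adjusted p = 0.58). At day 14 Hoxb13 (−1.18) and Hoxd12 (−1.14) were called of 16 tested (4.36% called, 1.81% lower), and without mouse 1, 2, 3, 15 or 16 the count was 0. At day 20 limma called 0 of 16 (4 at an unadjusted p under 0.05; 1.56% called). The summed columnar markers of mid-colon were 18267 to 19381 TPM at day 0 and 11993 to 12803 TPM at day 9, and leukocyte markers (10 genes) lay between 112 and 167 TPM at day 0 and between 709 and 2407 TPM at day 9. Their part in the falls was not tested.

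In rectum 12 of 15 members fell at day 6, where 48.7% of all genes were called and 37.2% were lower, and the median of the tested members was −0.64 against −0.27 for all genes. With TMM scaling, under which the median of all genes was −0.06, 7 of the 15 were called, all lower; Hoxa3, Hoxa7, Hoxa10, Hoxd10 and Hoxd11 were the members lost. Hoxd13 went from 65.9, 63.4, 65.8 and 66.3 TPM to 33.0, 37.2 and 24.4 TPM (log2 difference −1.05, SE 0.14, adjusted p = 9.4e-04), and Hoxd12 from 3.53, 3.60, 3.96 and 3.06 TPM to 1.15, 1.38 and 0.956 TPM (log2 difference −1.07, SE 0.14, adjusted p = 8.5e-04). Neither gene's groups overlapped. The lowest day 6 value of Hoxd12 was under 1 TPM, so Hoxd12 passed the filter through its day 0 values. At day 9, 9 of 16 fell (53.5% called, 20% lower), and the median of the members was −0.67 against 0.13 for all genes. Hoxb13 was 62.0, 33.2 and 54.0 TPM at day 9 (log2 difference −1.96, SE 0.20, adjusted p = 8.1e-05), which is 26.0% of the day 0 mean. Hoxa13 was 20.8, 8.33 and 11.8 TPM (log2 difference −1.32, SE 0.26, adjusted p = 0.00282). Both lay below all 4 of their day 0 values. The other 7 were Hoxa9 (−0.63), Hoxa11 (−0.70), Hoxb9 (−0.87), Hoxd10 (−1.27), Hoxd11 (−0.87), Hoxd12 (−1.25) and Hoxd13 (−0.73). The call for Hoxa9 was lost over protein-coding transcripts alone (adjusted p = 0.388). Hoxa10, at 27.3, 22.3 and 28.1 TPM, was not called (log2 difference −0.15, SE 0.12, adjusted p = 0.33). Summed leukocyte markers in rectum were 158 to 275 TPM at day 0 and 11944 to 13625 TPM at day 9, and columnar markers 17629 to 19319 TPM and 10527 to 12803 TPM. Their part in the falls was not tested.

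Later in the course, fewer rectal members were called lower. At day 14, 3 of 17 were called lower (15.8% of all genes called, 9.51% lower): Hoxb13 (−1.19), Hoxd12 (−0.77) and Hoxa13 (−0.62). The count was 7 without mouse 14 and 1 without any other single mouse. At day 20 only Hoxb13 of 17 was called (7.68%, 4.88% lower), at 97.7, 61.3 and 104 TPM (log2 difference −1.15, SE 0.19, adjusted p = 0.0205), 45.7% of its day 0 mean and below all 4 day 0 values. This call was lost without mouse 1, mouse 2 or mouse 3 and when low values were not filtered (adjusted p = 0.0535). Rectal Hoxd10 was 18.2, 16.1 and 16.3 TPM at day 20, which overlapped day 0 (0.01), and Hoxa9 was 63.2, 31.6 and 40.5 TPM (log2 difference 0.48, SE 0.23, adjusted p = 0.22). Columnar markers at day 20 were 16483 to 18180.0 TPM, against 17629 to 19319 TPM at day 0. In mid-colon Hoxb13 was 93.0, 115 and 98.8 TPM at day 20, 57.7% of its day 0 mean with no overlap, and not called (log2 difference −0.77, SE 0.20, adjusted p = 0.0779).

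The anus showed a fall of posterior members from day 6. Of 24 members tested, 5 fell (15% of all genes called, 6.37% lower), all from the posterior end of HoxA, HoxB and HoxD. Anal Hoxb13 went from 36.5, 40.6, 23.8 and 83.7 TPM at day 0 to 1.89, 0.940 and 0.934 TPM at day 6 (log2 difference −4.26, SE 0.38, adjusted p = 4.5e-04), 2.72% of the day 0 mean. No values overlapped, and at day 3 Hoxb13 had still been 52.8, 31.8 and 40.7 TPM. Most of its day 6 values were under 1 TPM, so Hoxb13 passed the filter through its day 0 values. Hoxd13 went to 6.14, 3.25 and 2.82 TPM (log2 difference −1.99, SE 0.37, adjusted p = 0.00959) and Hoxa13 to 3.02, 1.71 and 1.08 TPM (log2 difference −1.65, SE 0.39, adjusted p = 0.0233). Hoxd10 reached 1.95, 1.60 and 2.11 TPM (log2 difference −1.55, SE 0.29, adjusted p = 0.0095) and Hoxd11 1.80, 1.03 and 1.37 TPM (log2 difference −1.50, SE 0.26, adjusted p = 0.0075). For all 5 genes each day 6 value was below each day 0 value; the call for Hoxa13 was lost without mouse 2, 9 or 10 and when low values were not filtered (adjusted p = 0.0600). Hoxb9 was not called (log2 difference −1.17, SE 0.36, adjusted p = 0.0625), and Hoxd12 was under the filter, at 0.145, 0.107 and 0.0409 TPM. Hoxa9 (19.9, 18.0 and 23.4 TPM, log2 difference 0.09, SE 0.24, adjusted p = 0.85), Hoxa7 (log2 difference −0.24, SE 0.21, adjusted p = 0.54) and Hoxd8 (log2 difference 0.11, SE 0.32, adjusted p = 0.87) were not called.

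The same 5 genes, and no other member, were called lower at day 9 of 23 tested (5.09% of all genes called, 3.63% lower). Hoxb13 was 1.22, 1.42 and 3.64 TPM (log2 difference −3.86, SE 0.42, adjusted p = 0.00115), Hoxd13 −2.11, Hoxa13 −1.59, Hoxd10 −1.41 and Hoxd11 −1.16 on the log2 scale. Without mouse 11 or mouse 12 the day 9 count was 1, and without mouse 2 or mouse 13 it was 2. With no filter on low values it was 1, Hoxb13. At day 14 Hoxb13 alone was called (4.89, 3.47 and 1.64 TPM, log2 difference −3.37, SE 0.43, adjusted p = 0.00892; 1 of 23, with 4.27% of all genes called and 2.01% lower). At day 20 limma called 0 of 24 members (4 at an unadjusted p under 0.05; 1.46%), with Hoxb13 at 14.3, 3.49 and 6.81 TPM, still below every day 0 value (log2 difference −2.39, SE 0.49, adjusted p = 0.0611). The HoxC genes were not called lower at these days: 8 were tested at day 6 and 8 at day 9, none was called and none had an unadjusted p under 0.05, with log2 differences between −0.39 and 0.37 and between −0.26 and 0.40. Hoxc8 was 2.53, 3.61 and 3.64 TPM at day 6 and Hoxc10 2.13, 1.78 and 3.75 TPM.

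Columnar epithelial markers moved with the posterior Hox genes in the anus. Their summed level in the anal samples was 2302, 3430.3, 2069 and 6426 TPM at day 0, 8883, 3888 and 6157 TPM at day 3, 239, 109.7 and 128 TPM at day 6 and 154, 124 and 161 TPM at day 9. It was 628, 388 and 223 TPM at day 14 and 1969, 597 and 1008 TPM at day 20. All 10 markers were called lower at day 6 and at day 9 and 7 of 10 at day 14, where 6.37%, 3.63% and 2.01% of all genes were lower. At day 20 it was 0 of 10, where 1.46% of all genes were called, and no marker was at 0 in any anal group. Cdx1, the intestinal factor, fell by 4.00 at day 6 (limma adjusted p = 6.0e-04). It was under 1 TPM in every anal sample of that day, so it passed the filter through day 0 alone. Summed mesenchymal markers were 2283 to 3217 TPM at day 0 and 3041 to 4192 TPM at day 6. In these bulk samples a loss of columnar cells and a lower level of these Hox transcripts per cell cannot be told apart.

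**Figure D4:**
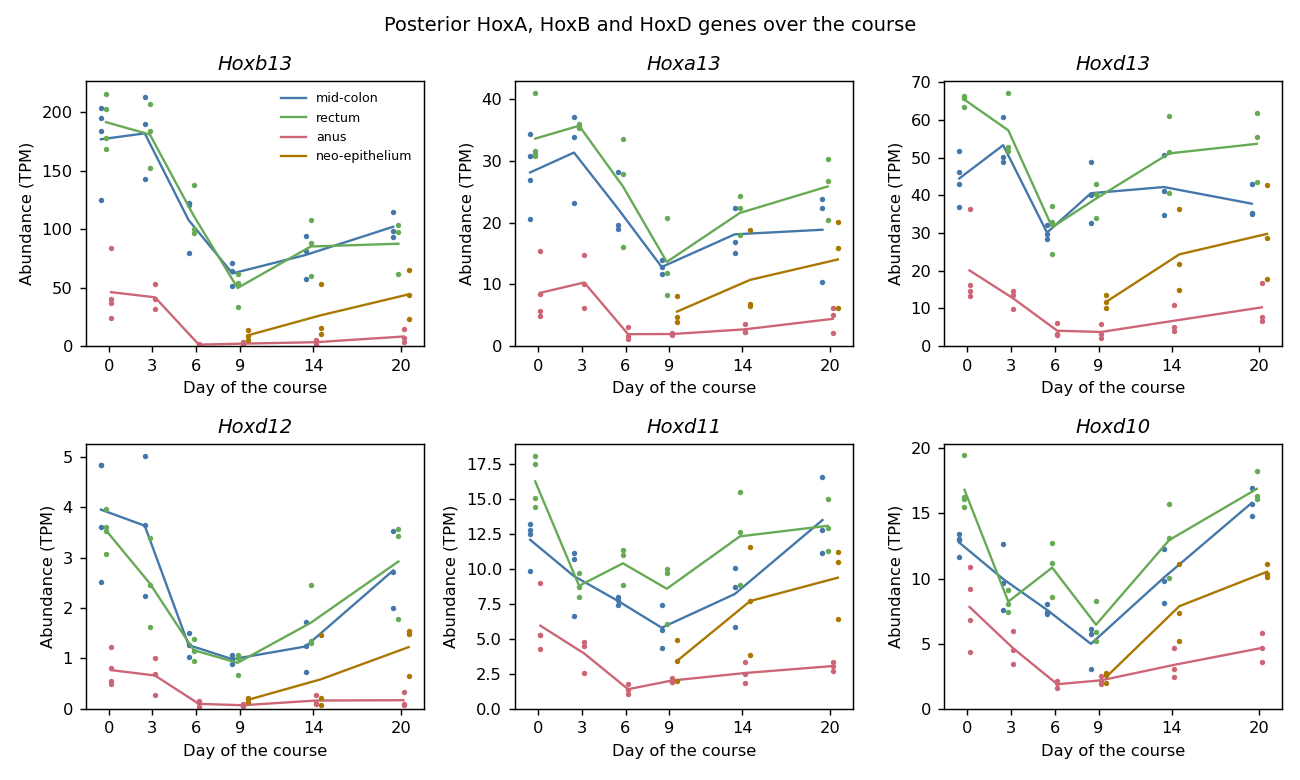
Abundance (TPM) of Hoxb13, Hoxa13, Hoxd13, Hoxd12, Hoxd11 and Hoxd10 by day of the course, with 1 point per sample and a line through the means of each section. Anal Hoxb13 lies near 0 from day 6 to day 14, and the neo-epithelium lies between anus and rectum for Hoxb13 at days 9 to 20.

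The difference in response between sections was tested directly as an interaction. Between anus and rectum at day 6, 3 of 26 members were called, where 21.5% of all genes were (15.4% higher and 6.16% lower). Hoxb13 fell further in anus than in rectum, with a difference between the log2 changes of −3.48 (SE 0.44, adjusted p = 1.6e-04), having reached 2.72% of its day 0 mean in anus and 58.2% in rectum. Hoxd11 differed in the same direction (log2 difference −0.90, SE 0.29, adjusted p = 0.0401), with an adjusted p of 0.107 under the block by mouse and of 0.707 over protein-coding transcripts alone. Hoxa9 differed in the other direction (log2 difference 0.94, SE 0.28, adjusted p = 0.0288), having fallen in rectum (−0.85) and not been called in anus; with TMM scaling its adjusted p was 0.0621. Single mice decided both calls: that for Hoxa9 was lost without mouse 1, 3, 8, 9 or 10, and that for Hoxd11 without mouse 1, 2, 4, 9 or 10. Between rectum and mid-colon at day 9, limma called 0 of 17 members (2 at an unadjusted p under 0.05; 6.55% of all genes called), and Hoxb13 differed by −0.48 (SE 0.30, adjusted p = 0.44).

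The last comparisons asked which Hox pattern the squamous neo-epithelium carried. It was compared with rectum, anus and mid-colon of the same 9 mice, with day as a covariate; these comparisons share the 9 neo-epithelial samples. Against rectum, 16 members were tested, with 2 higher and 9 lower (42.9% of all genes called, 20.9% higher and 22% lower); at day 20 alone, with 3 mice, none of the 9 lower calls held, and adjusted p was 0.177 for Hoxb13, 0.170 for Hoxd13 and 0.231 for Hoxa13. Against anus, 17 were tested, with 10 higher and 4 lower (59.8%, 40.1% higher and 19.7% lower), and against mid-colon 16, with 4 higher and 8 lower (56.8%, 40.3% higher and 16.5% lower). Hoxb7 and Hoxd8 were above their rectal levels, 6 members (Hoxa13, Hoxb9, Hoxb13, Hoxd10, Hoxd11 and Hoxd13) were called both lower than in rectum and higher than in anus, and HoxC genes were at or near 0. The columnar markers lay between the 2 neighbours as well, with 10 of 10 lower than in rectum and 10 of 10 higher than in anus, and their part in the order was not tested. The share of all genes called in both ways was not counted, so the 6 members are not a result in themselves. At day 14 alone Hoxa13, Hoxb13, Hoxd10, Hoxd11 and Hoxd13 lost their calls below rectum (limma adjusted p between 0.0622 and 0.252). Hoxb9 lost its call above anus at each of days 9, 14 and 20 alone. Hoxd10 and Hoxd11 lost theirs above anus at day 9 alone (limma adjusted p = 0.614 and 0.152). At day 20 alone Hoxa13 and Hoxd13 lost theirs (limma adjusted p = 0.0958 and 0.0570). Below rectum, Hoxa13 also lost its call at day 9 alone (limma adjusted p = 0.0632).

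Hoxb7 in neo-epithelium was 6.47, 8.53 and 8.39 TPM at day 9, 5.65, 7.82 and 8.75 TPM at day 14 and 5.65, 5.01 and 3.99 TPM at day 20. It was higher than in the rectum of the same mouse in 9 of 9 mice (log2 difference 1.74, SE 0.14, adjusted p = 3.5e-08) and higher than in the anus in 5 of 9. Its call against anus (log2 difference 0.47, SE 0.19, adjusted p = 0.045) was lost with the block by mouse (adjusted p = 0.0765), with TMM scaling (adjusted p = 0.0857) and at day 20 alone (−0.21). Hoxd8 was 4.73, 4.54 and 2.42 TPM at day 9, 2.28, 3.53 and 4.59 TPM at day 14 and 3.48, 5.39 and 5.49 TPM at day 20, again higher than rectum in 9 of 9 mice (log2 difference 1.25, SE 0.16, adjusted p = 9.3e-06) and not called against anus (log2 difference −0.23, SE 0.17, adjusted p = 0.25). The rectal median of Hoxd8 in these mice was 0.814 TPM. Against rectum Hoxd8 thus passed the filter through its neo-epithelial values, which limits what that call shows. Hoxb6 was higher than rectum in 9 of 9 mice, with medians of 1.42 and 0.553 TPM, and did not pass the filter there. Its call against anus (0.40) was lost with the block by mouse (adjusted p = 0.0532). Hoxd9 (1.46, 1.97 and 1.13 TPM at day 9, 2.39, 2.27 and 1.87 TPM at day 14 and 2.15, 1.48 and 1.74 TPM at day 20) was lower than in anus (log2 difference −0.56, SE 0.11, adjusted p = 3.3e-04) and was not called against rectum (log2 difference 0.17, SE 0.11, adjusted p = 0.24).

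HoxC genes were lower in neo-epithelium than in anus. Hoxc8 was 0.0336, 0 and 0 TPM at day 9, 0, 0 and 0.0256 TPM at day 14 and 0.0273, 0 and 0 TPM at day 20, against between 2.23 and 3.67 TPM (median 3.21) in the anus of the same mice, a log2 difference of −2.02 (SE 0.07, adjusted p = 4.8e-13). Hoxc10 was listed at 0 in 8 of 9 neo-epithelial samples and was 0.0299 TPM in the other one, and in the anus it lay between 1.47 and 4.23 TPM (median 2.09) (log2 difference −1.70, SE 0.12, adjusted p = 2.9e-09). Hoxc8 and Hoxc10 passed the filter through their anal values alone, so both calls as lower were set by the filter. Hoxc13 was listed at 0 in all 9 neo-epithelial samples. The highest HoxC value in this section was 0.440 TPM, for Hoxc6. With no filter on low values, 8 of the 9 HoxC genes were called lower than in anus, where 3584 of 22816 of all genes were called lower. Summed squamous markers in neo-epithelium overlapped those of the anus (15084 to 33764 TPM). Skin and skeletal muscle markers were lower in 8 of 8 and 7 of 7 tested genes, where 19.7% of all genes were lower. Among them Krt25, listed at 0 in all 9 neo-epithelial samples, could pass the filter through the anus alone, so these counts are not results in themselves. The part of these tissues in the HoxC difference was not tested.

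Among the posterior genes, Hoxb13 in neo-epithelium was 13.7, 5.56 and 8.27 TPM at day 9, 52.9, 10.7 and 15.5 TPM at day 14 and 44.0, 23.6 and 65.2 TPM at day 20. In 9 of 9 mice it was lower than in rectum (log2 difference −1.78, SE 0.30, adjusted p = 1.6e-04) and higher than in anus (log2 difference 2.17, SE 0.32, adjusted p = 2.9e-05). Hoxd13 (11.7, 13.4 and 10.1 TPM at day 9, 36.3, 14.9 and 21.8 TPM at day 14 and 42.6, 17.9 and 28.8 TPM at day 20) was also below rectum (log2 difference −1.22, SE 0.18, adjusted p = 5.2e-05) and above anus (log2 difference 1.56, SE 0.23, adjusted p = 3.0e-05) in 9 of 9 mice. Hoxa13 differed by −1.05 from rectum and 1.35 from anus. Of the others below rectum, Hoxb9 was −1.37, Hoxa5 −0.85, Hoxd10 −0.81, Hoxd12 −0.78, Hoxd11 −0.77 and Hoxa3 −0.74. Hoxa9 and Hoxa10 were not called against rectum (0.23 and −0.19). The call for Hoxa9 above anus (0.42) was −0.26 over protein-coding transcripts alone (adjusted p = 0.0154), and its call above mid-colon was lost with the block by mouse (adjusted p = 0.0718).

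Within the neo-epithelium 4 of 15 members rose from day 9 to day 20, where 26.2% of all genes were called and 10.1% were higher: Hoxb13 (log2 difference 2.12, SE 0.43, adjusted p = 0.0163), Hoxd10 (log2 difference 1.75, SE 0.16, adjusted p = 0.00243), Hoxd11 (log2 difference 1.25, SE 0.32, adjusted p = 0.0301) and Hoxd13 (log2 difference 1.20, SE 0.31, adjusted p = 0.0324). Hoxd10 was 2.60, 2.77 and 1.97 TPM at day 9, 11.1, 5.20 and 7.34 TPM at day 14 and 11.1, 10.1 and 10.3 TPM at day 20, with no overlap between days 9 and 20. The count was 9 without mouse 18, 1 without mouse 13 or 17, and 2 without mouse 11, 12 or 19. With no filter on low values Hoxd11 and Hoxd13 were not called (adjusted p = 0.0637 and 0.0639). Hoxb7 had a difference of −0.58 (SE 0.19, adjusted p = 0.0625), which was not called. The paralog 13 share of the Hox total was 21.2 ± 3.83% at day 9, 30.2 ± 12.3% at day 14 and 39.1 ± 8.26% at day 20. Summed columnar markers in the same samples were 1440.2, 247 and 571 TPM at day 9, 9766, 1550.1 and 2445 TPM at day 14 and 8684, 4298 and 9679 TPM at day 20. At each of the 3 days the sample with the highest columnar sum was also the one with the highest Hoxb13 (mice 11, 14 and 19). The part of columnar cells in these levels was not tested.

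**Figure D5:**
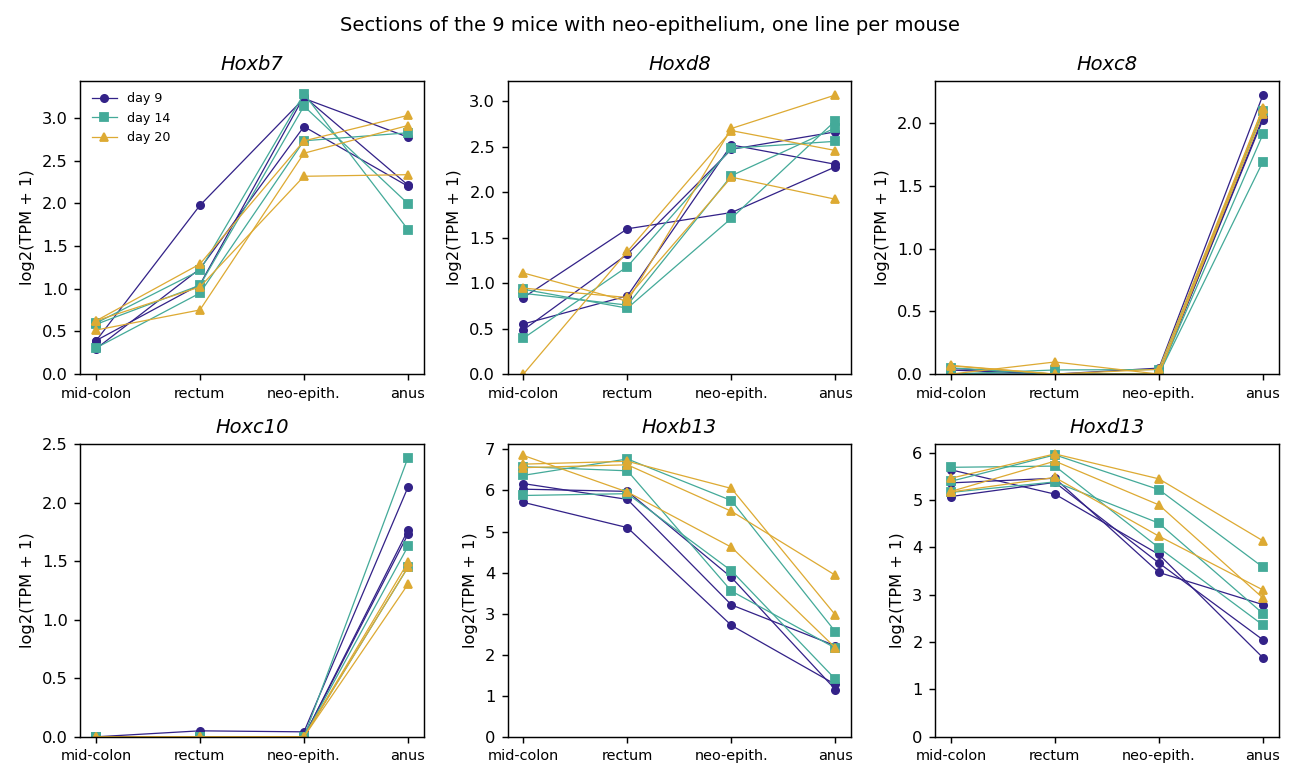
log2(TPM + 1) of Hoxb7, Hoxd8, Hoxc8, Hoxc10, Hoxb13 and Hoxd13 in the 4 sections of the 9 mice with neo-epithelium, with 1 line per mouse and colour for the day. Neo-epithelial Hoxb7 and Hoxd8 are above the rectum in 9 of 9 mice, Hoxc8 and Hoxc10 are near 0 outside the anus, and Hoxb13 lies between rectum and anus in 9 of 9.

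The pathway lists of the neo-epithelium were set beside these values. Against rectum, 3 of 7 tested TALE cofactors were higher and 0 lower, among them Meis2 (2.94) and Meis1 (2.26), with a median of 0.21 against 0.00 for all genes. Of 9 tested retinoic acid genes 7 were higher (20.9% of all genes were), among them Crabp2 (4.73) and the retinol receptor Stra6 (3.42). Cdx1 (−3.00) and Cdx2 (−2.30) were the 2 ParaHox genes tested and both were lower, where 22% of all genes were. Cdx2 passed the filter through its rectal values, which limits what its call shows. Of 16 Polycomb and trithorax genes 3 were higher, among them Cbx8 (0.77) and Rnf2 (0.47), a share near the 20.9% of all genes called higher. Against anus the retinoic acid list split, with 4 higher and 4 lower of 11 where 40.1% and 19.7% of all genes were, and the carrier Crabp1 was −4.71 (SE 0.17, adjusted p = 4.2e-13). In rectum at day 9, 5 of 7 retinoic acid genes were higher, where 4404 of 13140 of all genes were called higher and 2624 lower, among them Aldh1a3 (log2 difference 4.12, SE 0.18, adjusted p = 1.2e-06), and the retinal dehydrogenase gene Aldh1a1 was lower (−1.64). Of 16 Polycomb and trithorax genes 5 were higher at that day, the PRC2 subunits Ezh2 (0.86), Suz12 (0.74) and Eed (0.63) with Wdr5 and Kdm6b, and 2 were lower, Ezh1 and Cbx8, shares no larger than those over all genes.

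Transcript types differed among members and bear on some of the values above. Hoxb13, Hoxc10, Hoxd9, Hoxd10, Hoxd12 and Hoxd13 each rest on 1 protein-coding transcript. For Hoxa10, 73.9% of the anal and 64.2% of the rectal abundance was on Hoxa10-203, annotated as a processed transcript, and for Hoxa7, 89.2% and 74.3% was on Hoxa7-205, annotated for nonsense-mediated decay. For Hoxd11, 66.1% of the anal and 64.0% of the rectal abundance was on the processed transcript Hoxd11-201. Over protein-coding transcripts alone, Hoxd11 lost its calls in rectum at day 3 (adjusted p = 0.0589), in anus at day 9 (adjusted p = 0.141) and in neo-epithelium from day 9 to day 20 (adjusted p = 0.375). Hoxa9 differed between the sections in its transcripts: protein-coding transcripts held 45.4% of its abundance in the uninjured anus and 20.3% in the uninjured rectum. The coding transcript Hoxa9-201 was 8.29 ± 1.29 TPM in anus and 5.16 ± 0.732 TPM in rectum, and the processed transcript Hoxa9-204 was 7.01 ± 4.09 TPM and 17.8 ± 3.49 TPM. The gene model Gm28308 overlaps Hoxa2 to Hoxa6 and averaged 2.68 TPM, and Hoxa3 itself spans Hoxa4 to Hoxa6, so the values of these 5 genes are uncertain.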

How the data were processed

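The authors deposited 1 table of transcript abundances for 66 samples, a signal on the TPM scale. The submitters' processing notes name CASAVA, kallisto and the mm10 build, and the index, the versions and the use of strand are not given in the sources used here. Of 126860 rows, 37344 had no values and 1318 repeated another row. The remaining 88198 transcripts sum to 1000000 per sample within 0.22. Of these, 1284 had no gene identifier and were left out, which removed between 0.563% and 2.83% of the TPM of a sample. The other 86914 were summed per gene identifier to 30452 genes. The deposited signal holds no counts, so depth is unknown.

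Tests used limma 3.58.1 in R 4.3.3 on log2(TPM + 1), with a pseudocount of 1 TPM and a mean-variance trend. A gene entered a test when the number of samples with 1 TPM or more was no less than the size of the smaller group. P-values were adjusted over all genes tested by Benjamini-Hochberg, and a call is an adjusted p under 0.05. There were 27 comparisons. Some genes are not reported here by name. Every Hox gene was named or counted; described sample by sample were paralog groups 10 to 13 with a mean of 1 TPM or more in a section at day 0 and the 3 most abundant others of each cluster. The members and lists were chosen with earlier results of these data known.

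The labels give a mouse number, so sections of 1 mouse are paired. Deviations of paired samples from their group means correlated on average at 0.109 for anus and rectum, 0.305 for rectum and mid-colon, 0.0443 for anus and mid-colon, 0.253 for neo-epithelium and rectum, 0.162 for neo-epithelium and anus and 0.0792 for neo-epithelium and mid-colon. Alternatives were another pseudocount, filters, TMM factors, the mouse as a block, 1 fit over all days, single days, protein-coding transcripts only and leaving out each mouse. The script was tested on simulated data. Figures were drawn with matplotlib 3.10.9 and tables with pandas 2.3.3 in Python 3.11.15.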

Additional observations from a re-analysis of the deposited data

Results flagged for a closer look

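Of 51 groups of 4 samples examined for 1 value far from the others, 3 held such a value, and chance gives about 1 in 20. In the uninjured anus Hoxa7 was 7.93 TPM in mouse 1 and between 11.8 and 12.4 TPM in the other mice, and Hoxd13 was 36.4 TPM in mouse 4 and between 13.2 and 16.2 TPM in the others. In the uninjured rectum Hoxa13 was 40.9 TPM in mouse 1 and between 30.8 and 31.6 TPM in the others.

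The change from day 0 to day 6 differed between anus and rectum for 3 members by limma's interaction test, anus minus rectum on the log2 scale. The difference was −3.48 for Hoxb13 (adjusted p = 1.6e-04), −0.90 for Hoxd11 (adjusted p = 0.0401) and 0.94 for Hoxa9 (adjusted p = 0.0288). The call for Hoxd11 was lost with the mouse as a replicate block (adjusted p = 0.107) and over protein-coding transcripts alone (adjusted p = 0.707), and that for Hoxa9 with TMM scaling (adjusted p = 0.0621).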

How the results depend on the processing

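Of 160 calls of single members, 96 held under every setting that gave a value, single days included, and 92 also without any single mouse. The values below are numbers of Hox genes called, and the cause of each change was not tested unless the setting itself tests fewer genes or samples. The number of all genes called also moved with the setting, so these numbers are not results in themselves. With no filter over days 3 to 20, calls over all genes were 6555 higher and 6110 lower of 23502 for anus against rectum. They were 3882 and 266 of 23177 for rectum against mid-colon and 8318 and 4955 of 23552 for anus against mid-colon. With a filter of 5 TPM, fewer genes were tested: 8 were called for anus against rectum and 8 for anus against mid-colon at day 0, 7 and 5 over days 3 to 20, 1 for mid-colon at day 14, and 5, 8 and 6 for neo-epithelium against rectum, anus and mid-colon. With no filter the numbers were 0 for rectum against mid-colon at day 0, 30, 6 and 31 over days 3 to 20 for anus against rectum, rectum against mid-colon and anus against mid-colon, 0 for mid-colon at day 14, 1 and 0 for rectum at days 14 and 20, 1 for anus at day 9, and 18, 22 and 20 for the neo-epithelial comparisons in the order above. With TMM factors they were 0 and 1 for rectum against mid-colon at day 0 and over days 3 to 20, 4 and 2 for mid-colon at days 14 and 20, 7 and 2 for rectum at days 6 and 20, and 1 and 5 for the interactions of rectum with mid-colon and of anus with rectum. A pseudocount of 0.1 TPM gave 5 for the latter. One fit over all days gave 3 for mid-colon at day 20 and 5 and 3 for anus at days 14 and 20. Protein-coding transcripts only, a setting chosen after seeing the data, gave 1 for mid-colon at day 20 and 1 and 2 for rectum at days 3 and 20. Neo-epithelium at day 14 alone gave 6 against rectum and 7 against mid-colon, and at day 20 alone 2, 6 and 4. The direction turned over protein-coding transcripts for Hoxa9 (0.43) and, over days 3 to 20, Hoxa7 (−0.50) in anus against rectum, and for Hoxa9 (−0.26) and Hoxa7 (0.31) in neo-epithelium against anus. It turned at day 20 alone for Hoxb6 (−0.0689) and Hoxb7 (−0.21) against anus and for Hoxa9 (−0.0743) against mid-colon.

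With the mouse as a replicate block, the numbers were 16, 2 and 13 at day 0 and 15, 0 and 14 over days 3 to 20 for anus against rectum, rectum against mid-colon and anus against mid-colon, 11, 12 and 12 for the neo-epithelial comparisons, and 0 and 2 for the interactions. Beyond the calls named in the report, the block ended no other, and it added 1, a member lower in neo-epithelium than in mid-colon.

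Leaving out 1 mouse at a time gave 14 to 17, 0 to 0 and 13 to 18 at day 0 and 15 to 16, 0 to 2 and 13 to 15 over days 3 to 20 in the same order. For days 3, 6, 9, 14 and 20 it gave 0 to 0, 0 to 7, 5 to 6, 0 to 3 and 0 to 3 in mid-colon, 2 to 3, 9 to 12, 9 to 10, 1 to 7 and 0 to 2 in rectum, and 0 to 0, 4 to 6, 1 to 5, 1 to 1 and 0 to 1 in anus. It gave 11 to 12, 12 to 15 and 10 to 12 for the neo-epithelial comparisons, 1 to 9 for day 20 against day 9, and 0 to 1 and 1 to 3 for the interactions.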
